A study of Mus musculus with 8 samples.

Results

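Pantr1 and Gm20646 are a pair of noncoding RNA genes that lie side by side on mouse chromosome 1. They lie at the locus of Pantr2, the noncoding RNA gene that the labels name as knocked out. They were taken as the 2 genes of that name in the deposited table of 14166 genes. Both had been picked with their levels by cluster, by cell cycle angle and by genotype in view, so those values are given as a description and without a test. Single-nucleus RNA sequencing profiled the dorsal telencephalon, the embryonic tissue that becomes the cerebral cortex, of C57BL/6J mice at embryonic day E15.5. The 4 wildtype and the 4 Pantr2 -/- samples are given below as wildtype and knockout, each with replicates 1 to 4. How the knockout allele was built, and whether a sample pooled several embryos, is not given in the sources used here.

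Long noncoding RNAs (lncRNAs) are transcripts that are not translated into protein, and many are transcribed from the neighbourhood of genes for developmental transcription factors. Pantr1 and Pantr2 are named for their place beside Pou3f3, which encodes a POU domain transcription factor of neural progenitors and upper-layer cortical neurons. The related factor Pou3f2 acts alongside Pou3f3 in the production and migration of upper-layer neurons. Some lncRNAs of this kind are known to act on genes of their own neighbourhood, and others to be transcribed together with those genes without acting on them.

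In the deposited gene table, which does not name its genome build, Pantr1 (ENSMUSG00000060424) runs from 42629942 to 42734002 on chromosome 1. Gm20646 (ENSMUSG00000093436) runs from 42734085 to 42783951. The 2 genes were taken up as an overlapping pair, but in that table they do not overlap: 82 bases lie between them. In the GENCODE M21 annotation on GRCm38 Pantr1 is a lincRNA (a long intergenic noncoding RNA) of the minus strand, from 42590782 to 42694842, with 12 transcripts. Gm20646 carries the name AC122898.1 there, is classed as sense-overlapping and lies on the plus strand from 42694925 to 42744791, with 2 transcripts. The genes are thus read away from each other out of a shared start region. The annotated span of Gm20646 holds the whole of Pou3f3 on its own strand (42695768 to 42703176) and the whole of Pantr2 on the other strand (42707061 to 42713454). Counts of Pou3f3 and Pantr2 were not analysed here, and genotypes are as labelled. Whether the counting used strand is not given in the sources used here, and molecules of Gm20646 and of the genes inside its span cannot be told apart from the deposited counts.

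**Figure D1:**
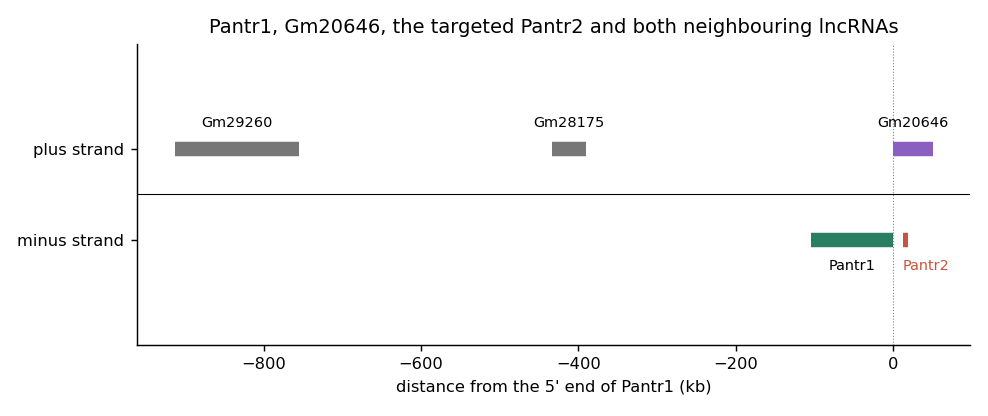
Map of the locus, with the distance from the 5′ end of Pantr1 in kilobases on the horizontal axis, plus-strand genes above the line and minus-strand genes below it. Bars span each gene in the deposited table, and Pantr2 is placed by its distance from the 5′ end of Pantr1 in GENCODE M21. Pantr1 and Gm20646 point away from each other with 82 bases between them, Pantr2 lies within the span of Gm20646, and Gm28175 and Gm29260 are both lncRNAs on the far side of Pantr1.

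The first exons of the 2 genes show what the start region holds, and the last exon of transcript Pantr1-206 shows a 3′ end, the kind of place where a 3′ method captures RNA. The gene has 12 transcripts and runs farther than this exon, so other transcripts end elsewhere. The sequences are from the GENCODE M21 transcripts (GRCm38), written 5′ to 3′ on the strand of the gene. Capitals mark each CG dinucleotide in the first exons and the polyadenylation hexamer AATAAA in the last exon. The first exon of transcript Pantr1-206 lies at chr1:42694747-42694825 on the minus strand, the first exon of Gm20646 at chr1:42694925-42695188 on the plus strand, and the last exon of Pantr1-206 at chr1:42648200-42648456 on the minus strand.
Pantr1-206 exon 1: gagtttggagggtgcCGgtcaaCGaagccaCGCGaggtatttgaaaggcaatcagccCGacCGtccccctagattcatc
Gm20646 exon 1: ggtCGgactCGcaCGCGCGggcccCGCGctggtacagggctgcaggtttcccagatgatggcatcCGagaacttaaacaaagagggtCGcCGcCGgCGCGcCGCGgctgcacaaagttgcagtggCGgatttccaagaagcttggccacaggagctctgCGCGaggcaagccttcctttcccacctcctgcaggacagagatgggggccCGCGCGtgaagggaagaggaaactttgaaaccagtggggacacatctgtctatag
Pantr1-206 exon 4: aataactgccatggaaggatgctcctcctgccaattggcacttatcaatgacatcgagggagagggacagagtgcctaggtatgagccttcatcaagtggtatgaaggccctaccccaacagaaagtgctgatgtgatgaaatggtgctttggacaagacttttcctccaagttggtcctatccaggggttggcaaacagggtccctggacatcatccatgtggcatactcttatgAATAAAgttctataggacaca
The 79 bases of the Pantr1 exon hold 6 CG dinucleotides, and the 264 bases of the Gm20646 exon hold 21. As many or more stand in the first 79 bases of 5.82% of 9097 lincRNA transcripts and in the first 264 bases of 2.36% of 8826. The AATAAA of Pantr1-206 ends 15 bases before the end of the exon. That hexamer, searched on the transcript strand alone, occurs in the last 257 bases of 36.7% of 8853 lincRNA transcripts.

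The tables held 67319 nuclei, with 7280 to 10921 nuclei and 20446698 to 34083796 unique molecular identifiers (UMIs, each standing for 1 captured molecule) per sample. The lowest depth of a nucleus was 1496 UMIs. Of the cell barcodes, 510 occurred in more than 1 sample, on 1023 nuclei. Xist, which is transcribed from the inactive X chromosome, gave no UMI in replicate 4 of the wildtype or replicates 1 and 4 of the knockout, and 77 to 128 in the others. The authors' tables assign each nucleus to 1 of 7 numbered clusters, which were called here by marker genes: upper-layer neuron-like (cluster 1, with 5 of 6 markers at their highest wildtype level there), subcerebral deep-layer neuron-like (cluster 2, 3 of 5), corticothalamic deep-layer neuron-like (cluster 3, 4 of 4), apical progenitor-like (cluster 4, 9 of 9 in the table) and intermediate progenitor-like (cluster 5, 6 of 6). Clusters 6 and 7 held under 3 markers of any 1 class at their highest level and stayed unnamed. Levels are given as CPM: the gene's UMIs per 1000000 UMIs summed over the nuclei of a sample and cluster.

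Pantr1 was an RNA of progenitors and upper-layer neuron-like nuclei in wildtype tissue, and low in deep-layer nuclei. The highest wildtype mean was in cluster 5, at 1184.8, 993.3, 897.3 and 1273.6 CPM in replicates 1 to 4. Cluster 1 followed at 957.4, 887.4, 800.1 and 1046.0 CPM, and cluster 4 at 869.2, 834.1, 790.5 and 873.1 CPM. The order of these 3 clusters was the same in 4 of 4 wildtype samples, though their ranges overlapped. A gap with no overlap then separated them from cluster 2, which stood at 209 ± 35.4 CPM (SD, n = 4). Clusters 6, 7 and 3 were lowest at 166 ± 42.0, 116 ± 17.1 and 84.3 ± 15.9 CPM, neighbours whose ranges overlapped. The highest cluster mean was 12.9 times the lowest.

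Gm20646 was a far rarer RNA, and its order of clusters was like that of Pantr1 except that apical progenitor-like nuclei stood first. In wildtype cluster 4 it was at 28.5, 23.9, 27.0 and 28.8 CPM, above every other cluster without overlap. Clusters 1 and 5 did not differ beyond their spread, at 19.8 ± 2.23 and 19.5 ± 1.93 CPM. Cluster 2 lay at 12.8 ± 2.40 CPM, clusters 7 and 6 at 9.77 ± 2.16 and 9.60 ± 2.94 CPM, and cluster 3 at 6.12 ± 1.03 CPM. The highest cluster mean was 4.43 times the lowest. For every 100 UMIs of Pantr1 the wildtype samples held 2.90 to 3.70 UMIs of Gm20646 over all nuclei, a ratio of counts that is not corrected for length.

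**Figure D2:**
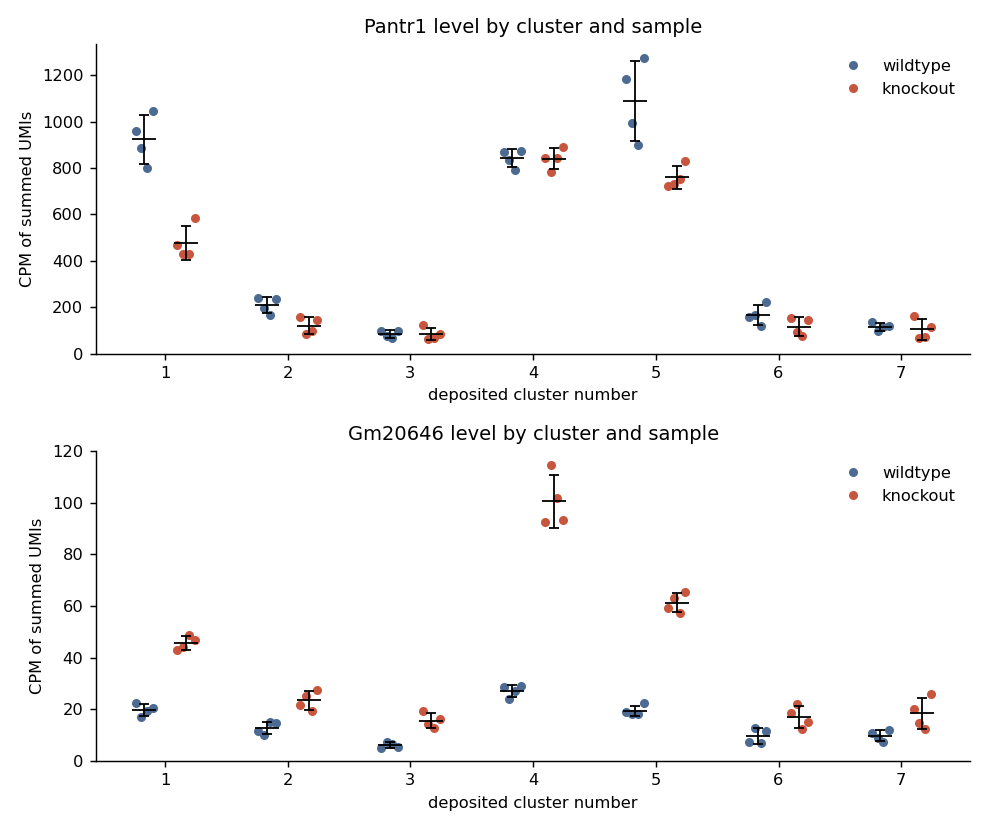
CPM of Pantr1 (top) and Gm20646 (bottom) on linear axes from 0, by deposited cluster number. Each point is 1 sample, blue for wildtype and red for knockout, and the black lines are the mean and SD of 4 samples. Pantr1 is lower in the knockout in clusters 1, 2 and 5 and level in cluster 4, and Gm20646 is higher in the knockout with the widest gap in cluster 4.

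Between the genotypes the 2 genes differed in opposite directions. The Pantr1 level was lower in the knockout in clusters 1, 2 and 5, and the Gm20646 level was higher in the knockout in most clusters. Pantr1 in cluster 1 read 468.0, 428.6, 427.9 and 582.8 CPM in knockout replicates 1 to 4, all below the lowest wildtype sample, with a log2 fold change (knockout minus wildtype) of -0.92 ± 0.10 (SE). In cluster 2 wildtype replicates read 239.8, 197.7, 164.3 and 235.3 CPM and knockout replicates 156.7, 84.7, 96.9 and 145.3 CPM. The groups there were apart by a small margin, and the log2 fold change was -0.80 ± 0.17. In cluster 5 the knockout read 723.2, 729.1, 753.9 and 830.5 CPM, again below all wildtype samples, with a log2 fold change of -0.49 ± 0.10.

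In cluster 4 Pantr1 showed no such gap. Knockout replicates read 844.2, 783.8, 842.7 and 892.0 CPM, within and beside the wildtype range, and the log2 fold change was 0.02 ± 0.06. Cluster 3, where Pantr1 was lowest, gave 84.3 ± 15.9 and 84.5 ± 27.1 CPM in wildtype and knockout. Clusters 6 and 7 gave log2 fold changes of -0.50 ± 0.22 and -0.15 ± 0.21, with groups that overlapped. Over all nuclei the levels were 478 ± 83.7 and 390 ± 44.2 CPM, which overlapped too. The order of clusters differed in the knockout: cluster 4 stood first in 4 of 4 samples, ahead of cluster 5, and cluster 1 lay below both without overlap.

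For Pantr1 the knockout samples lay wholly below the wildtype samples in 3 of 7 clusters. Of all genes tested, 6.29%, 7.6%, 5.83%, 6.61%, 3.87%, 3.81% and 3.68% did so in clusters 1 to 7, and 7.82% did over all nuclei. The choice of the genes used these values, so nothing is read from that count.

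For Gm20646 in cluster 4 the knockout replicates read 92.8, 114.6, 101.8 and 93.2 CPM against 28.5, 23.9, 27.0 and 28.8 CPM in wildtype. The means differed by 3.71 times, and the log2 fold change was 1.92 ± 0.10. In cluster 5 the wildtype read 19.0, 18.2, 18.3 and 22.3 CPM and the knockout 59.2, 63.1, 57.2 and 65.3 CPM, a log2 fold change of 1.67 ± 0.11. In cluster 1 the wildtype read 22.3, 17.1, 19.1 and 20.6 CPM and the knockout 42.8, 44.1, 48.7 and 46.9 CPM, a log2 fold change of 1.25 ± 0.10. All 3 clusters kept a clear gap between the groups.

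The neuron-like clusters of the deep layers showed smaller absolute differences from lower levels. Gm20646 was at 12.8 ± 2.40 and 23.5 ± 3.65 CPM in cluster 2 and at 6.12 ± 1.03 and 15.6 ± 2.90 CPM in cluster 3, both without overlap, with log2 fold changes of 0.88 ± 0.16 and 1.35 ± 0.17. Cluster 7 gave 0.93 ± 0.25 and cluster 6 0.90 ± 0.25, the latter with groups that overlapped. Over all nuclei the wildtype samples read 15.6, 13.8, 13.5 and 16.1 CPM and the knockout samples 48.1, 49.8, 40.5 and 40.8 CPM, from 1481 and 4491 UMIs, a log2 fold change of 1.62 ± 0.08. The knockout samples lay wholly above the wildtype samples in 6 of 7 clusters. Of all genes tested, 4.06%, 6.46%, 3.04%, 3.15%, 2.3%, 2.11% and 2.24% did so in clusters 1 to 7, and 3.53% did over all nuclei. Per 100 UMIs of Pantr1, Gm20646 gave 3.22 ± 0.24 UMIs in wildtype and 12.03 ± 1.85 in knockout for cluster 4, and 1.81 ± 0.18 and 8.07 ± 0.46 for cluster 5.

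**Figure D3:**
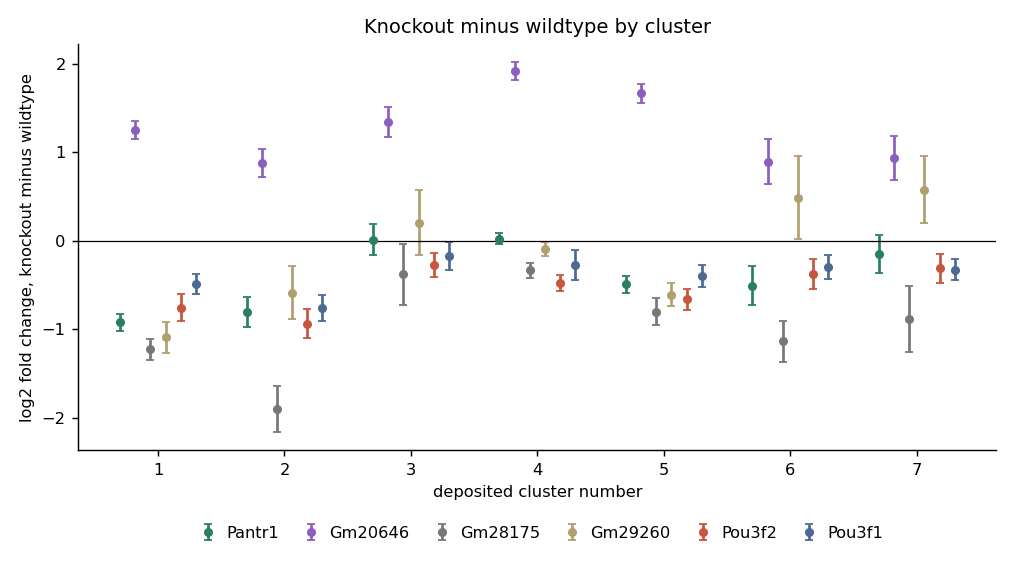
Log2 fold change, knockout minus wildtype, by cluster for Pantr1, Gm20646, the nearest lncRNAs Gm28175 and Gm29260, and the POU factors Pou3f2 and Pou3f1. Points are edgeR estimates and bars their standard errors. Gm20646 is above 0 in all 7 clusters, with 1.92 in cluster 4, while Gm28175, Pou3f2 and Pou3f1 are below 0 in all 7.

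Marker genes moved with genotype within these clusters. The 6 upper-layer markers, all in the table, summed to 6124 to 7233 CPM in wildtype cluster 1 and to 3563 to 5269 CPM in the knockout. In cluster 2 they summed to 2686 to 4340 and 1033 to 1610 CPM. The 5 subcerebral deep-layer markers went the other way, from 2084 to 2581 up to 3299 to 4610 CPM in cluster 1, from 6656 to 8050 up to 9046 to 11032 CPM in cluster 2, and from 1579 to 1701 up to 2004 to 2807 CPM in cluster 5. They were also higher in the knockout without overlap in clusters 3, 6 and 7, with 1928 to 1998 and 2427 to 2829 CPM in cluster 6. The 4 corticothalamic markers were higher without overlap in clusters 1, 2 and 5, with 1458 to 1794 and 2144 to 2246 CPM in cluster 2, and lower in cluster 3, with 7946 to 8727 and 6873 to 7709 CPM. The 3 Cajal-Retzius markers in the table were higher without overlap in clusters 2, 3 and 5, with 56.2 to 91.2 and 113 to 133 CPM in cluster 5. In cluster 4 the 9 apical progenitor markers summed to 2397 to 2914 CPM in wildtype and 2032 to 2194 CPM in knockout. The vascular and microglial lists summed to at most 23.3 CPM in any cluster and sample. In cluster 4 both were lower in the knockout without overlap, at 11.1 to 13.3 and 5.62 to 8.63 CPM for the vascular list and 2.77 to 5.19 and 1.31 to 2.31 CPM for the microglial one. The part of these shifts in the levels of Pantr1 and Gm20646 was not tested. Levels of Pantr1 within marker-positive and marker-negative nuclei are given below as a description.

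Counting nuclei gave how often an RNA was caught and how much of it each positive nucleus held, 2 measures that both follow the mean. Nuclei were thinned at random to 1400 UMIs apiece, so that depth was equal. A Pantr1 UMI was then found in 62.6% ± 4.17 of wildtype and 42.1% ± 5.09 of knockout nuclei of cluster 1, and in 67.4% ± 5.04 and 57.3% ± 3.74 of those of cluster 5. In cluster 4 the shares were 62.3% ± 2.25 and 61.4% ± 1.5. Cluster 3 had the lowest shares, 11.01% ± 1.72 and 10.6% ± 2.39, which stand here as the background, since UMIs of free RNA can be caught with any nucleus. Against that background the shares in clusters 7, 6 and 2 were 14.0% ± 0.78, 19.98% ± 5.04 and 23.3% ± 3.06 in wildtype.

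Nuclei with a Pantr1 UMI also held fewer such UMIs in the knockout. In cluster 1 they held 2.11 ± 0.12 in wildtype and 1.62 ± 0.03 in knockout, and in cluster 5 they held 2.38 ± 0.18 and 1.91 ± 0.04. In cluster 4 the means were 1.91 ± 0.05 and 1.92 ± 0.08. The share of nuclei with 3 or more Pantr1 UMIs was 18.7% and 6.17% in cluster 1 and 25.2% and 13.1% in cluster 5. Both the share of positive nuclei and the count per positive nucleus were thus lower in those clusters, but these are not separate findings.

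Gm20646 was caught in more nuclei of the knockout. At its low level nearly every positive nucleus held 1 UMI in both genotypes, so the count per positive nucleus cannot show how the amount per nucleus differed. The thinned share in cluster 4 was 3.72% ± 0.24 in wildtype and 13.5% ± 1.65 in knockout, with 1.02 ± 0.01 and 1.09 ± 0.02 UMIs per positive nucleus. In cluster 5 the shares were 2.87% ± 0.38 and 8.03% ± 0.47, and in cluster 1 they were 2.69% ± 0.41 and 6.30% ± 0.41. In cluster 3, the lowest, they were 0.93% ± 0.24 and 2.04% ± 0.52, and the wildtype shares of clusters 6 and 7, 1.55% ± 0.56 and 1.48% ± 0.28, stood close to it. The share in this background cluster thus differed between the genotypes too. What part free RNA has in the differences of clusters 3, 6 and 7 was not tested.

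Within apical progenitor-like nuclei the deposited cell cycle angle, which places each nucleus on a circle from its cycling genes, gave a second axis. Ranges of the angle that stand for S phase, G2/M and G1/G0 held 5734, 3634 and 1036 nuclei of cluster 4. Wildtype Pantr1 read 709 ± 99.1 CPM at the G1/G0 angle, 811 ± 36.2 at S and 915 ± 46.9 at G2/M. Knockout Pantr1 read 820 ± 88.3, 816 ± 50.9 and 889 ± 45.3 CPM. G2/M was above S in 8 of 8 samples, by 0.17 ± 0.04 in wildtype and 0.12 ± 0.07 in knockout on the log2 scale. Of the 3634 nuclei at the G2/M angle, 3439 lay between 1 and 1.25 pi, next to the S range. The contrast with S was not run with shifted ranges or thinned nuclei. G2/M was also above G1/G0 in 8 of 8 samples, but in 6 of 8 with UMIs per thinned nucleus and in 6 of 8 with shifted ranges, so that the contrast with G1/G0 depends on the scale and the limits of the range.

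Gm20646 was higher in the knockout at every usable angle. It read 20.2 ± 4.67 CPM at G1/G0, 26.1 ± 4.63 at S and 29.9 ± 1.83 at G2/M in wildtype, and 71.0 ± 20.7, 100.4 ± 8.41 and 111 ± 15.7 CPM in the knockout. The groups did not overlap in any of the 3 ranges. In 8 equal bins, of which 2 held under 20 nuclei in some sample and were left out, the ratio of the means lay between 2.62 and 5.13, and the groups were apart in 6 of 6 bins. The extremes come from bins with few UMIs: at the lowest angles the wildtype mean was 15.6 ± 5.43 CPM, over as few as 28 nuclei in a sample. Pantr1 in the same 6 bins gave ratios between 0.97 and 1.28, and the groups overlapped in each. With UMIs per thinned nucleus the groups of Gm20646 were apart in 5 of 6 bins, with ratios from 2.67 to 15.7, and those of Pantr1 in 1 of 6. With the limits of the bins shifted, the Gm20646 groups were apart in 6 of 7 usable bins, with ratios from 3.18 to 3.91. The share of all genes with groups apart in a range or bin is not given here. All bins are parts of the same samples, and the choice of the genes used these values. Nothing is thus read from the counts of ranges and bins.

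**Figure D4:**
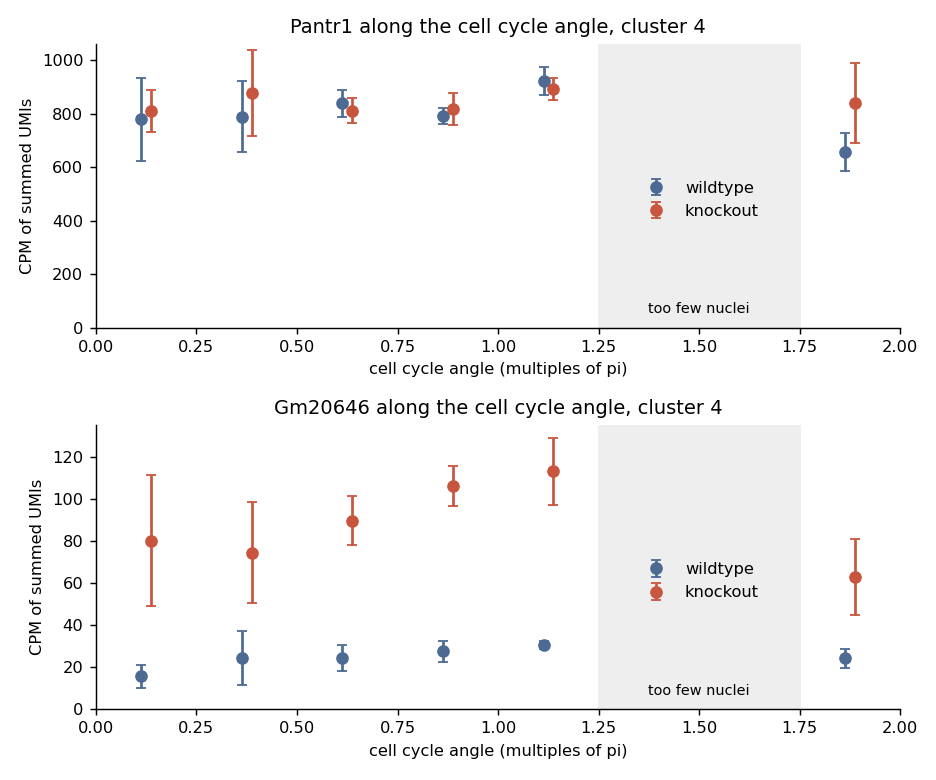
CPM of Pantr1 (top) and Gm20646 (bottom) in cluster 4 by cell cycle angle in multiples of pi, in bins, as mean and SD over 4 wildtype (blue) and 4 knockout (red) samples. In the grey range some sample held under 20 nuclei per bin. The Pantr1 groups overlap in 6 of 6 bins and the Gm20646 groups are apart in 6 of 6. The bins are parts of the same samples, and these counts are a description only.

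Nuclei were next split within a cluster by whether they held a UMI of a marker gene, a measure that the choice of the 2 genes had not used. The test was the exact two-sided permutation test that flips the sign of each sample's difference between positive and negative nuclei, on thinned counts. Benjamini-Hochberg adjustment took in all 47 splits. With 8 samples the smallest p is 0.0078. Pantr1 passed in 6 of 20 splits, each at that smallest p with an adjusted p of 0.0459.

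Of these 6 splits, 3 are described here. In cluster 1 Pantr1 was 1.60 times higher in nuclei positive for Cux2, an upper-layer homeobox gene, and 1.30 times higher in those positive for Pou3f2, in 8 of 8 samples each. In cluster 2 it was lower in nuclei positive for Bcl11b, a factor of subcerebral neurons, at 0.81 times the negative ones in 8 of 8 samples. That call alone did not hold with the limit on doublet scores of 0.25, where its adjusted p was 0.0879. The splits of cluster 4 by Pax6, Hes5, Slc1a3, Neurog2 or Eomes gave ratios from 0.91 to 1.09, with exact permutation p-values from 0.0859 to 0.430, and none passed. The splits of cluster 3 by Pou3f2 and Bcl11b, with ratios of 1.15 and 0.93, and those of cluster 5 by Pax6, Eomes and Neurog2, with ratios from 1.01 to 1.06, did not pass either. These ratios are over both genotypes, and some differed in direction between them. In wildtype and knockout they were 1.05 and 0.83 for Bcl11b in cluster 3. In cluster 5 they were 1.09 and 0.93 for Pax6 and 1.12 and 0.94 for Eomes. Pou3f2 in cluster 3 (1.14 and 1.16) and Neurog2 in cluster 5 (1.09 and 1.02) kept 1 direction.

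These splits also give the genotype difference of Pantr1 among nuclei that share a marker. In Cux2-positive nuclei of cluster 1, wildtype samples held 1.40 to 1.752 Pantr1 UMIs per thinned nucleus and knockout samples 0.851 to 0.990. In Cux2-negative nuclei the ranges were 0.897 to 1.16 and 0.460 to 0.697. The share of Cux2-positive nuclei itself was 50.4% to 59.5% in wildtype and 33.7% to 44.3% in knockout. Among Pou3f2-positive nuclei of cluster 1 the ranges were 1.38 to 1.77 and 0.808 to 1.05, and among Pou3f2-negative nuclei 1.11 to 1.44 and 0.607 to 0.764. Pantr1 stood lower in the knockout, with no overlap, on either side of both splits of cluster 1. This is a description, since the choice of Pantr1 used its genotype difference. Nuclei that share a UMI of 1 marker can still differ in other genes, and the part of that was not tested. In Bcl11b-positive nuclei of cluster 2 the ranges were 0.206 to 0.312 in wildtype and 0.117 to 0.204 in knockout, and in Bcl11b-negative nuclei 0.256 to 0.409 and 0.121 to 0.242. The share of Bcl11b-positive nuclei was 49.9% to 64.2% in wildtype and 74.8% to 84.1% in knockout.

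**Figure D5:**
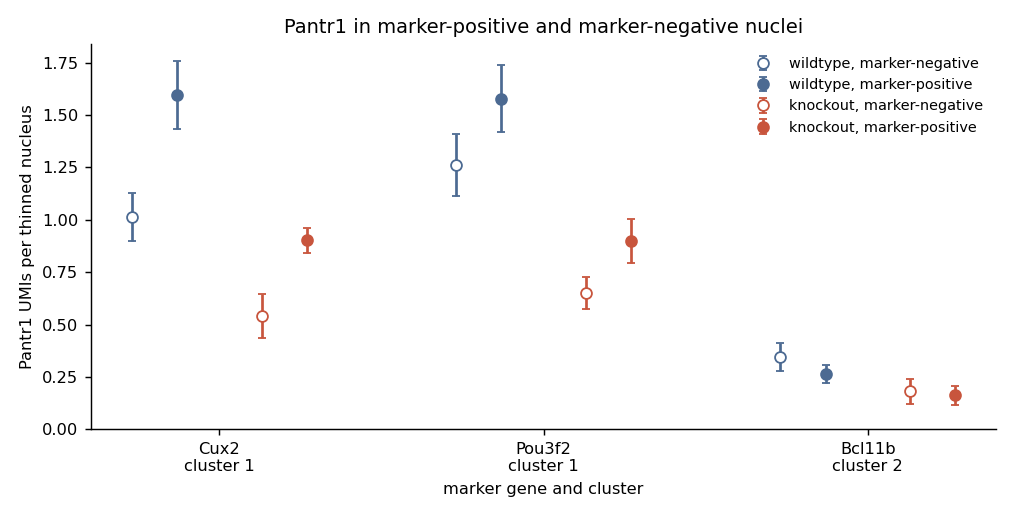
Pantr1 UMIs per nucleus thinned to 1400 UMIs, in nuclei without (open) and with (filled) a UMI of the marker named below, for 3 of the 6 splits that passed the test. Points and bars are the mean and SD over 4 wildtype (blue) and 4 knockout (red) samples. Filled points lie above open ones in both splits of cluster 1 and below them in cluster 2, and the knockout points lie below the wildtype points of the same kind.

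Gm20646 passed in 2 of 20 marker splits. In cluster 1 it was 1.33 times higher in Pou3f2-positive nuclei, in 8 of 8 samples, with an adjusted p of 0.0459 by the exact permutation test. That ratio was 1.19 in wildtype and 1.39 in knockout, and 1.13 to 1.40 over the alternatives. Knockout samples spread widely in Pou3f2-positive nuclei, from 0.0645 to 0.145 UMIs per thinned nucleus, beside 0.0615 to 0.0667 in negative ones. Whether Gm20646 was caught in the same nuclei as Pantr1 was asked in all 7 clusters, and 0 of the 7 splits passed. At an unadjusted exact permutation p under 0.05, 3 of them did: Gm20646 was 1.52 times higher in Pantr1-positive nuclei of cluster 1, 1.33 times in cluster 5 and 1.28 times in cluster 4, in 7 of 8 samples each, with adjusted p-values of 0.0612, 0.0612 and 0.0847. With CPM of unthinned counts 2 of the 7 passed.

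The genes around the locus were tested with edgeR's quasi-likelihood test, with Benjamini-Hochberg adjustment across the genes of a fit and a threshold of 0.05. The table holds 19 other genes within 2 Mb of Pantr1. In the 7 clusters these gave 108 comparisons, of which 8 passed, all lower in the knockout and all from 3 genes. Of all genes tested, 4.84%, 9.11%, 3.36%, 4.29%, 1.77%, 0.779% and 1.03% passed in clusters 1 to 7 and 5.26% over all nuclei. The shares that passed as lower were 2.3%, 5.19%, 1.88%, 3.12%, 0.906%, 0.428% and 0.455% and 3.58% over all nuclei, and as higher 2.54%, 3.92%, 1.48%, 1.17%, 0.868%, 0.352% and 0.578% and 1.67%. Among the 19, 2 of 16 tested passed in cluster 1, 1 of 15 in cluster 2, 0 of 16 in cluster 3, 2 of 17 in cluster 4, 2 of 15 in cluster 5, 1 of 14 in cluster 6 and 0 of 15 in cluster 7. The median log2 fold change of those genes over all nuclei was -0.04, beside 0.00 for all genes. An unadjusted p under 0.05 was reached in 2 comparisons each in clusters 3 and 7. With a block for replicate number 3 more calls were made, all lower in the knockout: Gm28175 in cluster 7, Gm29260 in cluster 2 and Ecrg4, a gene for a secreted peptide, in cluster 4 (edgeR-adjusted p = 0.0227, 0.0223 and 0.0454).

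Gm28175, a lncRNA 286369 bases from Pantr1 and its nearest neighbour on that side in the table, made 5 of the 8 calls. In cluster 1 it read 221.0, 182.1, 163.1 and 238.2 CPM in wildtype and 84.2, 75.4, 75.2 and 103.3 CPM in knockout (log2 fold change -1.23 ± 0.12, edgeR-adjusted p = 3.2e-05). In cluster 2 the change was -1.90 ± 0.26 (edgeR-adjusted p = 4.1e-04). Both held under all 14 alternatives, as did the call over all nuclei at -0.81 ± 0.14 (edgeR-adjusted p = 0.0103). In cluster 5 its level of 178 ± 28.3 CPM fell to 101 ± 26.7 CPM (edgeR-adjusted p = 0.0180), which was up to 0.07285 without wildtype replicate 1 or 4. The calls in clusters 4 and 6 (edgeR-adjusted p = 0.0485 and 0.0441) were lost in 9 and 6 of 14 alternatives, among them those without wildtype replicate 1, 2 or 4 or without knockout replicate 2 or 3. That in cluster 4 was lost without wildtype replicate 3 or knockout replicate 1 too, and that in cluster 6 without knockout replicate 4.

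Gm29260, the next lncRNA on that side at 651221 bases, was a progenitor RNA at 2967 ± 201 CPM in wildtype cluster 4. There it read 2737 ± 246 CPM in the knockout (edgeR-adjusted p = 0.632). In cluster 1 its level of 229 ± 34.7 CPM fell to 107 ± 34.3 CPM (log2 fold change -1.09 ± 0.17, edgeR-adjusted p = 0.00192) that held under all 14 alternatives. In cluster 5 its level of 1077 ± 228 CPM fell to 695 ± 98.9 CPM (edgeR-adjusted p = 0.0329), lost without replicate 1 or 4 of the wildtype or 2 or 3 of the knockout, where it was up to 0.121. Gulp1, an engulfment adaptor gene farther away on the side of Gm20646, fell in cluster 4 from 130.5 ± 11.1 to 86.0 ± 8.28 CPM (edgeR-adjusted p = 0.0023). The nearest neighbours beyond Gm20646 passed in no cluster: Mrps9, a mitochondrial ribosomal protein gene, had a log2 fold change of 0.08 ± 0.06 over all nuclei, and the receptor gene Gpr45 had -0.23 ± 0.12.

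Of 10 POU domain genes on a list of relatives of Pou3f3, 7 were in the table. In the clusters they gave 44 comparisons, of which 8 passed, 7 lower and 1 higher in the knockout. Those that passed were 2 of 7 in cluster 1, 3 of 6 in cluster 2 and 1 of 6 in cluster 3. In clusters 4 and 5 they were 1 of 7 and 1 of 6, and 0 of 6 in each of clusters 6 and 7. Of all genes tested, 4.84%, 9.11%, 3.36%, 4.29%, 1.77%, 0.779% and 1.03% passed in clusters 1 to 7. Pou3f2 passed in clusters 1, 2, 4 and 5. In cluster 4 it read 129.9, 128.2, 113.4 and 152.3 CPM in wildtype and 92.1, 88.3, 89.0 and 102.8 CPM in knockout (log2 fold change -0.47 ± 0.09, edgeR-adjusted p = 0.0113). Groups did not overlap there, in the cluster where Pantr1 was level and Gm20646 showed its widest gap. The log2 fold changes of Pou3f2 in clusters 1, 2 and 5 were -0.75 ± 0.15, -0.94 ± 0.16 and -0.66 ± 0.12 (edgeR-adjusted p = 0.0101, 0.0024 and 0.0107). The first of these was 0.0541 without knockout replicate 3 and the last 0.0517 without wildtype replicate 4.

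Pou3f1, another upper-layer POU factor, fell in cluster 1 by 0.49 and in cluster 2 by 0.76 on the log2 scale (edgeR-adjusted p = 0.0217 and 0.0049). The call in cluster 1 was lost without replicate 3 or 4 of the wildtype or 2 or 3 of the knockout, at up to 0.0868. Pou2f2 rose in cluster 2 from 141 ± 7.71 to 165 ± 3.32 CPM (edgeR-adjusted p = 0.0370), lost in 7 of 14 alternatives, which include the fits without wildtype replicate 1, 2 or 4 and without knockout replicate 2, 3 or 4. Over all nuclei Pou3f2 passed (edgeR-adjusted p = 0.0413), lost in 6 of 14 alternatives, those without replicate 1, 2 or 4 of the wildtype or 1, 2 or 3 of the knockout, at up to 0.134. With the replicate block Pou3f1 also passed over all nuclei and Pou3f4 in cluster 4, both lower in the knockout (edgeR-adjusted p = 0.0136 and 0.0448).

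Of 14 other lncRNAs listed as lying beside transcription factor genes, 12 were in the table, and 7 of 60 cluster comparisons passed, 5 lower and 2 higher in the knockout. Those that passed were 2 of 9 in cluster 1, 1 of 9 in cluster 2 and 1 of 8 in cluster 3. They were 3 of 10 in cluster 4, and 0 of 9, 0 of 7 and 0 of 8 in clusters 5 to 7. The shares of all genes that passed were 4.84%, 9.11%, 3.36%, 4.29%, 1.77%, 0.779% and 1.03% in clusters 1 to 7. Sox1ot and Sox2ot, which overlap or flank the SOX genes they are named for, fell in cluster 4. Sox1ot went from 170.2, 98.3, 101.0 and 172.2 CPM to 52.7, 52.2, 45.3 and 49.6 CPM (log2 fold change -1.41 ± 0.18, edgeR-adjusted p = 6.96e-04). Sox2ot went from 962 ± 124 to 604 ± 61.7 CPM (log2 fold change -0.64 ± 0.10, edgeR-adjusted p = 0.0023). Both held under all 14 alternatives. Dlx6os1, an interneuron lncRNA, fell in clusters 1 and 3 (edgeR-adjusted p = 0.0199 and 0.0361), where the 4 interneuron markers in the table summed to 28.03 to 43.9 CPM in wildtype and 9.90 to 23.5 CPM in knockout for cluster 1, and to 22.2 to 41.0 and 8.72 to 26.8 CPM for cluster 3, with a part in this result that was not tested. Its calls were lost in 3 and 7 of 14 alternatives, both of them without replicate 4 of the wildtype or 2 or 3 of the knockout, and that in cluster 3 also without replicate 1 or 2 of the wildtype or 4 of the knockout. Sox1ot passed in cluster 1, Emx2os in cluster 4 and 3110039M20Rik in cluster 2, the latter pair higher in the knockout (edgeR-adjusted p = 0.0414, 0.0491 and 0.0413). These calls were lost in 8, 10 and 5 of 14 alternatives, up to 0.184, 0.162 and 0.120. That of Sox1ot was lost with DESeq2 and without any 1 sample other than wildtype replicate 3 or knockout replicate 4. That of Emx2os was lost with DESeq2, with library totals and without any 1 sample other than knockout replicate 1. That of 3110039M20Rik was lost without replicate 1 or 2 of the wildtype or 1, 2 or 4 of the knockout. Over all nuclei Emx2os and 3110039M20Rik were higher, at an edgeR-adjusted p of 0.0227 and 0.0271. The former was lost without replicate 3 or 4 of the wildtype or 2 of the knockout, and the latter without replicate 1, 2 or 4 of the wildtype or 1 or 3 of the knockout. With a block for replicate number the count over all 8 fits went from 9 to 24, and the calls added include Rmst, a lncRNA of neural differentiation, which was higher over all nuclei and in clusters 1, 4, 5 and 7 (edgeR-adjusted p = 0.00177, 0.00225, 0.0184, 0.0200 and 0.0139).

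Among the genes of the 3 lists with enough counts to be tested, the largest increase within a cluster was 0.70 on the log2 scale, for Emx2os in cluster 2, in a comparison that did not pass. Gm20646 had 0.88 to 1.92, but it was picked with this difference in view, so nothing is read from that comparison. Among genes with too few counts, the ratio of mean CPM reached 2.63 for Lhx1os in cluster 2, on 7 wildtype and 19 knockout UMIs in all, with groups that overlapped. Across wildtype samples and clusters, the levels of Pantr1 were most like those of Meis2, a homeobox gene, with a Pearson r of 0.956 over 28 sums of a sample and cluster (log2(CPM + 1), 4 samples in 7 clusters). Rad54l2, Tnpo1, Xpo7 and Tut4 followed at 0.955 to 0.948, and Pou3f2 reached 0.930. The genes most like Gm20646 were Luc7l, Med1, Elavl1, Smad6 and Kat6a, at 0.927 to 0.912. Pantr1 and Gm20646 reached 0.900 with each other. These values describe the order of clusters, which share libraries and depth, and are given without a p-value.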

How the data were processed

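The values used are UMI counts per gene and nucleus, whole numbers that were not normalised, which the authors deposited for each sample with tables of genes and nuclei. Nuclei were loaded on the 10x Genomics 3′ version 2 chemistry, per the labels' protocols. The submitters' processing notes name kallisto, bustools and mm10, without their roles, and which reads were counted on which strand is not given in the sources used here. Cluster numbers, doublet scores and the cell cycle angle in radians are those that the authors deposited. The deposited scores go no higher than 0.50. Whether higher-scoring nuclei had been removed was not checked, and no doublet caller was run here.

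For each sample, UMIs were summed across its nuclei and across those of each cluster. Each of these 8 fits used edgeR 4.0.16 (R 4.3.3) with TMM, filterByExpr and glmQLFit, genotype as the only term, and Benjamini-Hochberg adjustment over all genes tested. Standard errors come from the quasi-likelihood F statistic. On simulated counts in which 200 genes differed by 1 on the log2 scale, the fits recovered 91% of them over all nuclei (13927 genes), 85.5%, 92%, 81%, 85%, 83.5%, 78.5% and 88% in clusters 1 to 7 (11664, 11538, 11890, 11935, 10595, 10522 and 10548 genes). False calls were 17 of 199 over all nuclei and 17 of 188, 15 of 199, 9 of 171, 13 of 183, 9 of 176, 4 of 161 and 11 of 187 in clusters 1 to 7.

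The 2 genes and all lists were chosen with earlier results of these data known. Some genes of these lists are not reported here, while counts over a list and adjusted p-values take them in. Named besides the 2 genes are the other genes called in the lists, the nearest neighbours on each side, and the 5 genes most like each of the 2 among 5230 with a mean of at least 50 CPM in some cluster. Replicates of a group are separate samples by their labels, and nothing says whether they were separate litters. Same-numbered samples of the 2 groups deviated together, with correlations across genes of 0.398, 0.185, 0.192 and 0.179, each over the 0.1 set for pairing. Some differently numbered samples passed 0.1 too. Wildtype replicate 3 with knockout replicate 4 reached 0.287, wildtype 2 with knockout 3 0.167 and wildtype 1 with knockout 2 0.113. Whether the numbers mark true pairs is thus not settled by these values. All 8 samples carry 1 library date. Alternatives were DESeq2 1.42.0, its size factors, library totals, no count filter, the replicate block, a doublet score of at most 0.25 and each sample left out.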

Additional observations from a re-analysis of the deposited data

Results flagged for a closer look

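Of 100 groups of 4 samples checked, 2 held a sample far from the others, while chance alone flags about 1 in 20 such groups. Pou3f2 in cluster 1 read 135.2 CPM in knockout replicate 4, with the other knockout samples at 76.8 to 85.7 CPM. That same replicate also gave the highest knockout level of Pantr1 in cluster 1, 582.8 CPM. Dlx6os1 in cluster 3 read 11.9 CPM in knockout replicate 1, with the other knockout samples at 3.16 to 4.17 CPM. No level of Pantr1 or Gm20646, by cluster or by range of the angle, was far from its group in this sense.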

How the results depend on the processing

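Gm20646 was higher in the knockout, by 0.71 to 1.96 on the log2 scale, in every cluster and alternative run. The Pantr1 difference moved by less than the spread of the samples in each, although its sign in clusters 3, 4 and 7, where it was near 0, was not stable. Over the 8 fits, 9 calls were made near Pantr1 (5 to 10 with a sample left out, 5 without wildtype replicate 1 or 4, 12 with the replicate block), 10 among POU genes (4 to 11, 4 without wildtype replicate 4, 5 without knockout replicate 3 and 6 without knockout replicate 2, 12 with the replicate block) and 9 among lncRNAs (3 to 15, 3 without wildtype replicate 4, 15 without knockout replicate 1, and 24 with the replicate block). For the lncRNAs, counts of 4 without wildtype replicate 2 or knockout replicate 2 or 3 and of 5 without wildtype replicate 1 also differed by over 1.5 times. The cause was not tested.

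Without nuclei above a doublet score of 0.25, Gm20646 in knockout cluster 5 was 65.0 CPM. The G2/M over G1/G0 log2 ratio of knockout Pantr1 was 0.12, but -0.00397 with shifted ranges, an alternative chosen after seeing the data, and -0.0283 per thinned nucleus. That of knockout Gm20646 was 0.68, but 0.21 with shifted ranges and 0.86 per thinned nucleus, where it had no value in wildtype, since 1 sample had 0 UMIs. Unthinned, 10 marker splits of Pantr1, 4 of Gm20646 and 2 of Gm20646 by Pantr1 passed, and 1 of the last with the limit on doublet scores. With a sample left out 0 passed in each family, where 7 samples allow no unadjusted p below 0.0156. Neurod1 in cluster 5 could not be split, Eomes in cluster 1 rests on 6 samples and Pax6 in cluster 5 on 7. Gm20646 is limited by depth: most positive nuclei hold 1 UMI of it.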

Other observations

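Among the 4 knockout samples, Pantr1 in clusters 2 and 6 fell into pairs of values, a pattern picked out after the values were seen. Knockout replicates 1 and 4 read 156.7 and 145.3 CPM in cluster 2, where replicates 2 and 3 read 84.7 and 96.9 CPM. In cluster 6 the values were 153.9 and 145.7 CPM in replicates 1 and 4 and 91.5 and 74.4 CPM in replicates 2 and 3. Clusters 7 and 3 did not form such close pairs, though replicates 1 and 4 again stood above replicates 2 and 3. In cluster 7 replicates 1 and 4 read 164.1 and 113.2 CPM against 65.0 and 73.0 CPM. In cluster 3 they read 122.4 and 85.4 CPM against 61.4 and 69.0 CPM. Clusters 1 and 4 had that order too, but cluster 5 and the sum over all nuclei did not. In cluster 5 knockout replicate 1, at 723.2 CPM, lay below replicates 2 and 3, at 729.1 and 753.9 CPM. Over all nuclei knockout replicate 4, at 380.3 CPM, lay just below replicate 2, at 381.0 CPM. Replicates 1 and 4 are the knockout samples with 0 UMIs of Xist. Of the wildtype samples, replicate 4 had 0 UMIs of Xist, and its Pantr1 level of 116.7 CPM in cluster 7 lay within the range of the others, as did its 235.3 CPM in cluster 2. In cluster 6 its 221.3 CPM lay above the others, at 119.4 to 164.9 CPM. Wildtype replicate 4 was also the highest wildtype sample in clusters 1, 4 and 5, at 1046.0, 873.1 and 1273.6 CPM. It was highest over all nuclei as well, at 554.2 CPM, and within the range of the others in cluster 3, at 97.3 CPM. No test was run on these values.

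Gm29260 in knockout replicate 1 read 103.6 CPM in cluster 6 and 98.8 CPM in cluster 7, beside 12.9 to 30.2 and 18.5 to 43.2 CPM in the other knockout samples. The same RNA was at 2482 to 3262 CPM in cluster 4 of all 8 samples.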
